A study of Mus musculus with 6 samples.

Results

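Wnt ligands and the genes that answer them were examined in epithelial sheets of the mouse forestomach, whose lining is squamous and layered like that of the oesophagus. The set held 10 genes: the ligands Wnt4, Wnt5a, Wnt7a, Wnt7b and Wnt10a, the receptor Fzd10, the secreted inhibitor Sfrp1, the nuclear factor Lef1, and the target genes Axin2 and Lgr5. Members were taken by the gene name that the scanner files give to a probe, which selected 16 of 41174 probes. Of the 10 genes, 9 entered the test of 20569 genes, and Wnt7a did not, being too dim.

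Wnt proteins are secreted lipid-modified ligands that bind Frizzled receptors at the cell surface. In the β-catenin branch, binding stops a destruction complex that holds the Axin proteins, β-catenin accumulates, and it acts in the nucleus with factors of the TCF and LEF family. Axin2 and Lgr5 are widely used as target genes of that branch, and in squamous epithelia it is known for its part in the upkeep of basal progenitors.

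Control mice carried K5-CreER, a recombinase that tamoxifen activates and that the keratin 5 promoter drives in basal cells. Mutant mice carried K5-CreER and Rosa26Sox2/Sox2, a Sox2 transgene at both copies of the Rosa26 locus. Both groups were of a 129/Sv and C57/BL6 mixture, received 2 doses of tamoxifen at 7 weeks and were 12 weeks old when sheets of epithelium were taken. There were 3 arrays per group, biological replicates by their labels. On each array RNA of the sheets was labelled with Cy5 and a reference RNA of 11 mouse cell lines with Cy3, so that every value below is a log2 ratio of sample over reference unless an intensity is named, and differences are mutant minus control.

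Control 3 stood apart. On that array the sample gave a signal well above background on 62.6% of probes, against up to 76.2% elsewhere, and the median signal was 4.81 times the background against 12.1 to 13.1 times. Its scan fell on a day of its own. Controls 1 and 2 nearly coincided, their log2 ratios differing by 0.156 (scaled median of absolute differences), as did mutants 2 and 3 with 0.104, against 0.326 to 0.73 for the other pairs. If either pair came from one RNA, p-values that count it as 2 samples are too small. Mutants shared a slide with no control, so that slide cannot be told apart from genotype. Squamous markers were present: all 6 basal markers and 6 of 7 suprabasal markers were well above background on every array. The array's Sox2 probe was not compared with the transgene, of which its sequence may not be part, so that it was not used as a check. It read 6.26, 6.09 and 6.38 on controls and 5.67, 5.83 and 5.95 on mutants, lower on every mutant array. The difference was -0.43 (limma, adjusted p = 0.143).

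The probes of Wnt4 and Wnt5a are shown because the results on the ligands turn on them. Both are 60 bases long, and by the files' coordinates (mm9) each spans an intron, Wnt4 at chr4:136851690-136852258 and Wnt5a at chr14:29331746-29335708, so that they read spliced transcripts. The whole oligo is in capitals.

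Wnt4 probe: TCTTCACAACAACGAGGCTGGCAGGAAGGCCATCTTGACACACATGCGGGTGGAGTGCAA
Wnt5a probe: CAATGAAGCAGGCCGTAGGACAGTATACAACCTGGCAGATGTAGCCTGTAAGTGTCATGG

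Promoter windows of the 250 bases before a start site were taken from RefSeq (GRCm38.p6) for the 5 members that matched by symbol: Lef1, Wnt4, Fzd10, Wnt7a and Axin2. They were searched on both strands for the TCF and LEF motif in 4 forms. The form CTTTGAA was in 4.46% of all 32851 windows of that length. The form CTTTGAT was in 3.21% of them, and 3.2% held the form CTTTGTA on either strand. The form CTTTGTT, in 5.03%, is also a form of the motif of the SOX family, to which Sox2 belongs. The other forms are close to it, so that a match to any of them does not tell these families apart. Of the 8 windows of these members, 1 held a match to any form, whereas 14.8% of all windows did. Several of the 8 were windows of Lef1, and those starting at 131110047 and 131110073 overlap, so that the 8 are not separate promoters. The match lay 147 bases before a Lef1 start site inside the gene, as TACAAAG, which is CTTTGTA on the reverse strand. That window (chr3:131156044-131156293, plus strand) is shown with the match in capitals, beside the window of the feedback gene Axin2 (chr11:108920099-108920348, plus strand), which held none. Base composition differed between them, with 44.8% G or C in the Lef1 window and 69.2% in that of Axin2.

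Lef1 window: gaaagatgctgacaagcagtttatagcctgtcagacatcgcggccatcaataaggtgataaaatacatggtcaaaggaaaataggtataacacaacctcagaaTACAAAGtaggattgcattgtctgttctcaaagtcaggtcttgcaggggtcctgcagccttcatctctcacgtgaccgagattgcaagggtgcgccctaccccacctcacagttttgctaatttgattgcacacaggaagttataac
Axin2 window: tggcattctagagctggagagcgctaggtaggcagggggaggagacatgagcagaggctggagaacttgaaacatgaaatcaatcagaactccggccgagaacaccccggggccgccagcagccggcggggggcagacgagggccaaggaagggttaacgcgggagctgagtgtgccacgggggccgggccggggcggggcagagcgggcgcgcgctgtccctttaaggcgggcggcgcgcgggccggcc

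Across the 9 tested genes no difference passed an adjusted p of 0.05, the threshold used throughout (limma with Benjamini-Hochberg adjustment over all genes, two-sided), where 2.82% of all genes did (1.4% higher and 1.43% lower in mutants). At an unadjusted p under 0.05 stood 2 of the 9, Wnt4 and Wnt7b, against 23.8% of all genes. The mutant arrays lay wholly to one side of the control arrays for 4 of the 9, against 37.9% of all genes. Of these 4, Wnt4, Wnt7b and Fzd10 were lower and Sfrp1 was higher, shares of all genes being 18.2% lower and 19.7% higher. The median difference was -0.29 over the 9 genes and 0.01 over all genes, and the median absolute difference was 0.44 against 0.26. The counts of calls and of separated groups are thus near those of all genes, and the values below describe single genes.

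**Figure D1:**
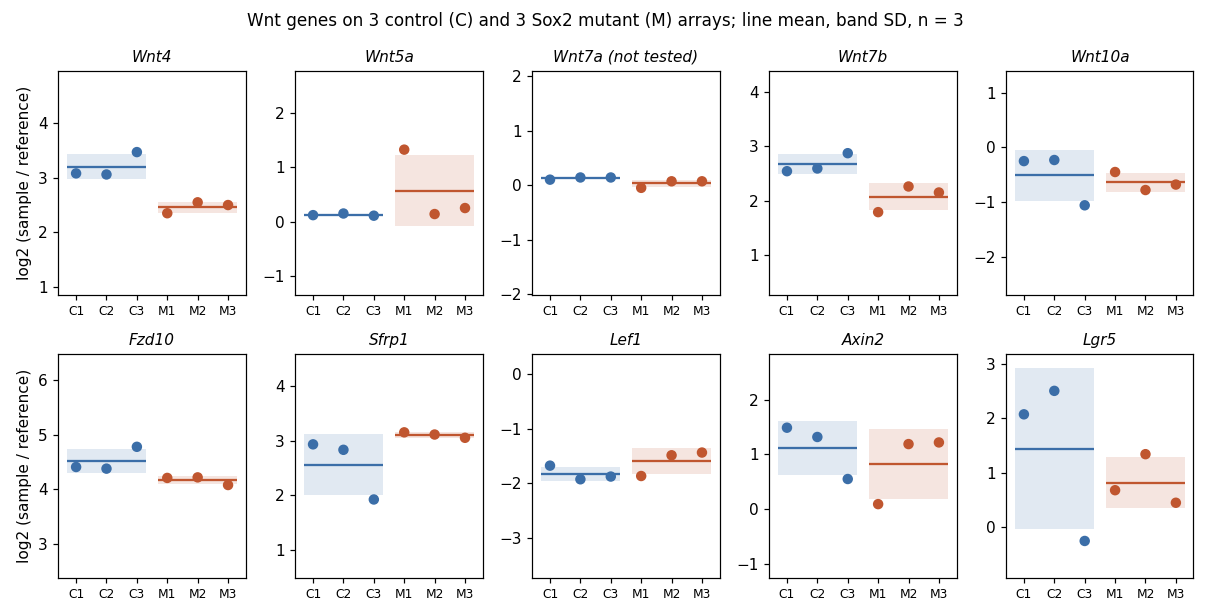
Log2 ratio of sample over reference (vertical axis, same span in every panel) of the 10 Wnt genes on control arrays C1 to C3 and mutant arrays M1 to M3 (horizontal axis); lines are group means and bands are SD over 3 arrays. Wnt4 and Wnt7b lay lower on every mutant array, Wnt5a was high on M1 alone, and Lgr5 ranged over 2.75 log2 units with its lowest value on C3.

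Wnt4, a ligand known for its part in kidney tubule formation, was the member with the smallest p. Its log2 ratio was 3.08, 3.06 and 3.47 on controls 1 to 3 and 2.35, 2.55 and 2.50 on mutants 1 to 3. The groups did not overlap, and the mutants lay within 0.20 of each other while the controls spanned 0.41, control 3 being the highest. The mean went from 3.20 ± 0.23 to 2.46 ± 0.10 (SD, n = 3 each), a difference of -0.74 (SE 0.15, 1.67-fold lower) with a 95% interval from -1.11 to -0.36. It did not pass over all genes (limma, adjusted p = 0.0651), and p was 0.1 in the exact permutation test (two-sided), which cannot go lower with 3 arrays in each group.

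The call on Wnt4 changed when control 3 was left out and when the sample channel was read alone. Without that array the difference was smaller, at -0.60 (SE 0.10), but passed (limma, adjusted p = 0.0373), where 7.21% of all genes passed without control 3, 4.03% of them lower and 3.18% higher. Read from the quantile-normalized sample channel only, the Wnt4 difference was -1.19 on the log2 scale (2.28-fold lower, SE 0.19) and passed (limma, adjusted p = 0.0467), where 1.48% of all genes passed. The reference RNA, which is the same on all arrays by design, also read lower for Wnt4 on mutant arrays, by -0.45 (adjusted p = 0.364), so that the ratio showed a smaller difference than the sample channel.

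Wnt7b, a ligand of the β-catenin branch with known roles in lung and kidney, had log2 ratios of 2.54, 2.59 and 2.87 in controls and 1.79, 2.26 and 2.15 in mutants. Again the groups did not overlap, with control 3 highest and mutant 1 lowest. The mean went from 2.67 ± 0.18 to 2.07 ± 0.25 (SD, n = 3 each), a difference of -0.60 (SE 0.17, 1.52-fold lower, 95% interval from -1.02 to -0.18, limma, adjusted p = 0.12). Background-subtracted intensities of its probe (chr15:85366495-85366554) showed that mutant 1 was low in both channels. The sample intensity was 1896 there against 6769 and 8085 on mutants 2 and 3, and the reference intensity was 509.6 against 1080 to 1643 on the other 5 arrays. In the sample channel the difference was -1.15 (SE 0.57, limma, adjusted p = 0.313). Without control 3 the ratio differed by -0.50 (adjusted p = 0.126).

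In sum and in median log2 ratio, suprabasal squamous markers were also highest on control 3, while their order among mutants differed with the measure. Krt6a was the exception, with its lowest log2 ratio on control 3, at 0.29 against 2.55 to 2.99 elsewhere. The median log2 ratio of the 7 suprabasal markers was 4.36, 4.2 and 5.41 on controls and 3.67, 3.49 and 3.43 on mutants, so that mutant 1 was the highest mutant, unlike for Wnt4 and Wnt7b. The summed sample-channel level of the list, which holds the cornified envelope gene Lor with a probe saturated on 5 arrays, was 2207000, 2177000 and 2760000 on controls and 1708000, 2206000 and 2283000 on mutants, with mutant 1 the lowest. Single genes were divided. The keratin genes Krt4 and Krt13 read 4.74 and 3.67 on mutant 1, above mutants 2 and 3, and Lor and Sprr3 were also highest there among mutants. Ivl and Sbsn were the lowest of the mutants on mutant 1, at 2.74 and 3.07, and Krt6a lay between mutants 2 and 3. The median difference of that list was -1.04 with 1 of 7 positive and none passing. The 6 basal markers had median log2 ratios of 3.32, 3.3 and 3.56 on controls and 3.05, 2.9 and 2.72 on mutants. Their median difference was -0.49 with 1 of 6 positive and none passing. Their summed level was instead lowest on control 3, at 704300, and highest on mutant 1, at 1751000. The part of either list in the Wnt4 and Wnt7b values was not tested. In these bulk samples fewer cells of a type and less RNA per cell cannot be told apart.

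Wnt10a, a ligand required for teeth and skin appendages, did not separate the groups. Its log2 ratio was -0.25, -0.23 and -1.06 in controls and -0.45, -0.78 and -0.68 in mutants, so that control 3 was the lowest of all 6 arrays and controls 1 and 2 the highest. The difference of -0.12 (SE 0.25, limma, adjusted p = 0.791) had a 95% interval from -0.73 to 0.48 and turned to 0.01 without control 1 and to 0.02 without control 2. Without control 3 it was -0.39 (adjusted p = 0.121).

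Wnt5a, the best known ligand of the β-catenin-independent branch, was high on a single array. Its spliced-transcript probe had log2 ratios of 0.12, 0.15 and 0.11 in controls and 1.32, 0.14 and 0.25 in mutants. Mutant 1 stood more than 1 log2 unit above the other 5 arrays, and mutant 2 lay among the controls. The mean went from 0.12 ± 0.02 to 0.57 ± 0.65 (SD, n = 3 each), a difference of 0.44 (SE 0.32, limma, adjusted p = 0.423) that was 0.07 without mutant 1. A probe for a further Wnt5a transcript sequence (chr14:29340427-29340486), so named in the annotation of control 3's file alone, showed the same array. It read -0.65, -0.61 and -2.28 in controls and 1.42, -1.24 and -1.45 in mutants, a difference of 0.75 (SE 0.85, limma over probes, adjusted p = 0.621). Summed levels of leukocyte markers (6 genes) were also highest on mutant 1, at 25510 against 7913 to 12270 on the other arrays. So were those of 6 endothelial markers, at 14230 against 5420 to 9695. By median log2 ratio the leukocyte markers were again highest on mutant 1, at -0.26. The endothelial markers were not, with 3.39 on mutant 1 against 3.58 and 3.47 on controls 1 and 2. Summed levels of fibroblast markers were not highest on mutant 1, with 425400 there against 414600 and 428400 on mutants 2 and 3. Single fibroblast genes were divided. Col1a1, Col3a1, Col5a1, Pdgfra, Fbln1 and Mfap4 had their highest log2 ratio on mutant 1, and Col1a2, Dcn, Lum and Postn did not. The part of these cells in the Wnt5a value was not tested.

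Wnt7a, a ligand of limb and reproductive tract patterning, was at the edge of detection. Its probe (chr6:91314653-91314712) was well above background on no control array and on 2 of 3 mutant arrays, with sample intensities of 44.2, 36.4 and 47.1 in controls and 38.4, 57.3 and 52.0 in mutants. These values overlap, and no fold is given.

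**Figure D2:**
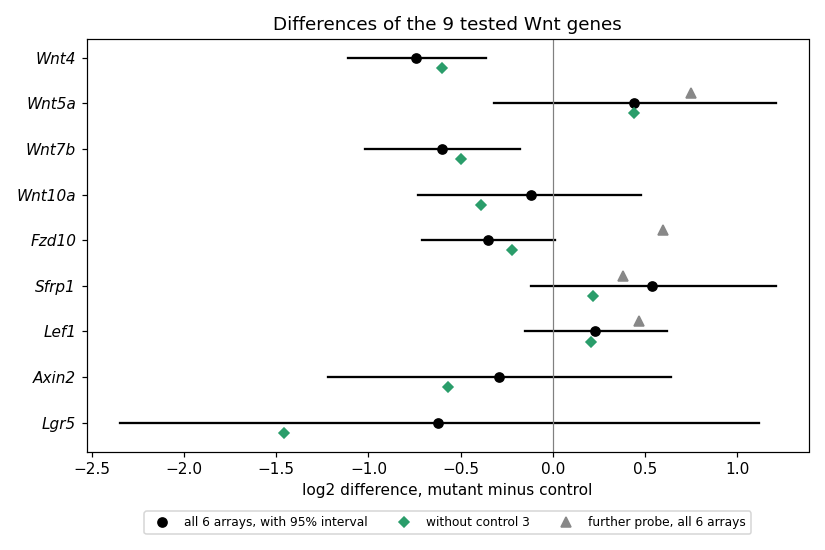
Log2 difference, mutant minus control (horizontal axis), of the 9 tested Wnt genes (vertical axis), with its 95% interval over 6 arrays (black), the difference without control 3 (green diamonds) and further probes of the gene that passed the detection filter (grey triangles). The intervals of Wnt4 and Wnt7b lay below 0, the further Fzd10 probe stood on the opposite side of 0, and Lgr5 moved most without control 3.

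The receptor gene Fzd10 gave readings that differed between its probes. The brighter one (chr5:129109798-129109857) had log2 ratios of 4.41, 4.38 and 4.78 in controls and 4.21, 4.22 and 4.08 in mutants. All mutants lay below all controls, by a mean of -0.35 (SE 0.15, 95% interval from -0.71 to 0.01, limma, adjusted p = 0.215). The other probe lies 943 bases nearer the start of the transcript (chr5:129108855-129108914) and read 4.88, 4.57 and 2.96 in controls and 4.74, 4.87 and 4.60 in mutants. Its difference was 0.60 (SE 0.48, limma over probes, adjusted p = 0.48) and rested on control 3, without which it was 0.01. With all probes of a gene averaged the Fzd10 difference was 0.12, and with the arrays scaled to one spread it was 0.03, so its direction was not settled.

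Sfrp1, which encodes a secreted protein that binds Wnt ligands and keeps them from their receptors, was the one member with mutants wholly above controls. Its log2 ratio was 2.93, 2.83 and 1.92 in controls and 3.15, 3.11 and 3.05 in mutants. The mutants lay within 0.10 of each other, and the distance to controls came largely from control 3. The mean went from 2.56 ± 0.56 to 3.1 ± 0.05 (SD, n = 3 each), a difference of 0.54 (SE 0.28, 1.46-fold higher, 95% interval from -0.12 to 1.21, limma, adjusted p = 0.284), and it was 0.22 without control 3 (adjusted p = 0.185).

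The intensities behind the Sfrp1 ratio differed far more than the ratio. The sample intensity of the probe (chr8:24558112-24558171) was 7643, 7997 and 1408 in controls and 23880, 17810 and 18390 in mutants, and the reference intensity was 1024, 942.4 and 510.9 in controls and 2517, 1879 and 1956 in mutants. Every mutant array was thus brighter than every control array in both channels, although the reference RNA was common to all. After quantile normalization the sample channel differed by 1.54 (SE 0.31, 2.92-fold, limma, adjusted p = 0.081) and the reference channel by 0.97 (SE 0.14, 1.96-fold, adjusted p = 0.152), where 0.0681% of all genes passed in the reference channel alone. A second Sfrp1 probe, placed 688 bases further along the transcript (chr8:24558800-24558859), did not share this. Its sample-channel difference was 0.23 and its reference signal on mutant arrays was 1.07 times that on controls, although the reference was above background for it on no array. In the ratio it read 2.27, 2.13 and 1.03 in controls and 2.34, 2.02 and 2.22 in mutants, a difference of 0.38 (SE 0.33, limma over probes, adjusted p = 0.515) that was -0.01 without control 3. Fibroblast markers, of a cell type that expresses Sfrp1, had a summed level of 421300, 379000 and 114400 in controls and 425400, 414600 and 428400 in mutants, lowest on control 3 as Sfrp1 was. All 10 of them were above background on every array and had positive differences (median 0.76, none passing). Their median log2 ratio was -0.95, -0.93 and -2.49 in controls and -1.03, -1.06 and -1.02 in mutants, so that only control 3 lay below the mutants. Their part in the Sfrp1 value was not tested.

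**Figure D3:**
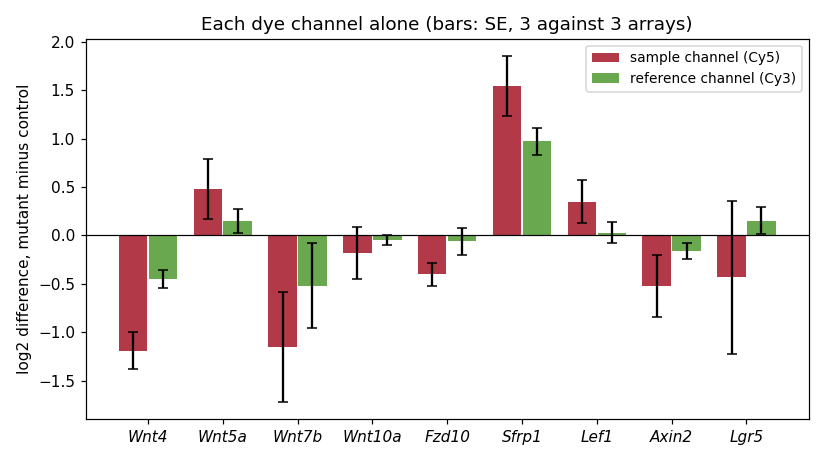
Log2 difference, mutant minus control, of the 9 tested Wnt genes in the Cy5 sample channel and in the Cy3 reference channel, each quantile-normalized; error bars are SE from limma, 3 arrays against 3. Sfrp1 differed in both channels (1.54 and 0.97), Wnt4 was lower in both (-1.19 and -0.45), and the reference differences of Lef1 (0.03), Wnt10a (-0.05) and Fzd10 (-0.06) were near 0.

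Lef1, a DNA-binding partner of β-catenin, varied least over the 6 arrays among the 9 tested genes, by 0.50 log2 units. Its spliced-transcript probe (chr3:130907851-130926012) had log2 ratios of -1.68, -1.93 and -1.88 in controls and -1.87, -1.49 and -1.44 in mutants. Mutant 1 lay among the controls while mutants 2 and 3 lay above them, and the difference was 0.23 (SE 0.16, 95% interval from -0.15 to 0.62, limma, adjusted p = 0.408). A probe named Lef1 in the annotation of control 3's file (chr3:130927036-130927095) read -4.34, -4.43 and -5.12 in controls and -3.96, -4.34 and -4.17 in mutants, a difference of 0.47 (SE 0.24, limma over probes, adjusted p = 0.276) that was 0.23 without control 3. A further Lef1 probe was above background on no array.

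Axin2, a scaffold of the destruction complex that β-catenin signalling itself induces, did not separate the groups either. Its log2 ratio (chr11:108811980-108812039) was 1.49, 1.32 and 0.55 in controls and 0.09, 1.19 and 1.22 in mutants. Control 3 and mutant 1 were low, and the other 4 arrays, of both genotypes, lay between 1.19 and 1.49. The mean went from 1.12 ± 0.50 to 0.83 ± 0.64 (SD, n = 3 each), a difference of -0.29 (SE 0.39, 95% interval from -1.22 to 0.64, limma, adjusted p = 0.676). It was -0.57 without control 3 (adjusted p = 0.359) and 0.08 without mutant 1 (adjusted p = 0.902), so a single array set its sign.

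The genes whose centred log2 ratios lay nearest to those of Axin2 over the 6 arrays are named as a description. They were picked from all tested genes for that likeness, so that sharing the low arrays of Axin2 follows from the choice. Cacnb2, a calcium channel subunit gene, was at a Euclidean distance of 0.11, the kinase gene Wnk2 at 0.22 and the channel gene Calhm5 at 0.24, where the median distance of all genes was 1.32. Cacnb2 read 0.57, 0.41 and -0.34 in controls and -0.87, 0.33 and 0.22 in mutants.

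Lgr5, a receptor for R-spondins that marks stem cells of the glandular stomach and intestine, varied most of the members. Its log2 ratio (chr10:114888847-114888906) was 2.07, 2.50 and -0.25 in controls and 0.68, 1.34 and 0.45 in mutants. On control 3 it was not well above background, with a sample intensity of 9.27 against 449.3 and 723.3 on controls 1 and 2 and 127.3 to 265.3 in mutants. The difference of -0.62 (SE 0.72, limma, adjusted p = 0.628) had a 95% interval from -2.35 to 1.12. Without control 3 all mutants lay below both controls, by -1.46 (SE 0.30, 2.76-fold lower), which narrowly missed the threshold (limma, adjusted p = 0.0527). Without control 1 the difference was -0.30 and without control 2 it was -0.09. A second Lgr5 probe was above background on no array.

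In sum and in median log2 ratio, markers of the glandular stomach, the neighbouring columnar tissue, were lowest on control 3 and mutant 1. Axin2 was lowest on the same arrays, whereas Lgr5 was lowest on control 3 and mutant 3. The summed sample-channel level of 11 such genes was 1764000, 1661000 and 14560 in controls and 357800, 1451000 and 1052000 in mutants. All 11 were detected on some array and 7 on every array, and their median log2 ratio was 0.41 on control 3 and 2.51 on mutant 1 against 3.68 to 4.37 elsewhere. Not every gene of the list had this order. Gkn2, Tff1 and Tff2 were lowest on control 3 but not next lowest on mutant 1. Muc6 and Chga were lowest on mutant 1 but not next lowest on control 3. Markers of smooth muscle and pericytes (6 genes, all above background on every array) summed to 539900, 432700 and 59030 in controls and 85720, 352500 and 321400 in mutants, with the same 2 arrays low. Here too single genes differed. Rgs5 was lowest on control 3 but read 4.01 on mutant 1, above 3.72 and 3.61 on mutants 2 and 3. Myh11 was lowest on mutant 1 but not next lowest on control 3. Acta2, Des, Cnn1 and Actg2 were lowest on these 2 arrays. No gene of either list passed the test. The part of glandular or muscle tissue in the values of Lgr5 and Axin2 was not tested.

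**Figure D4:**
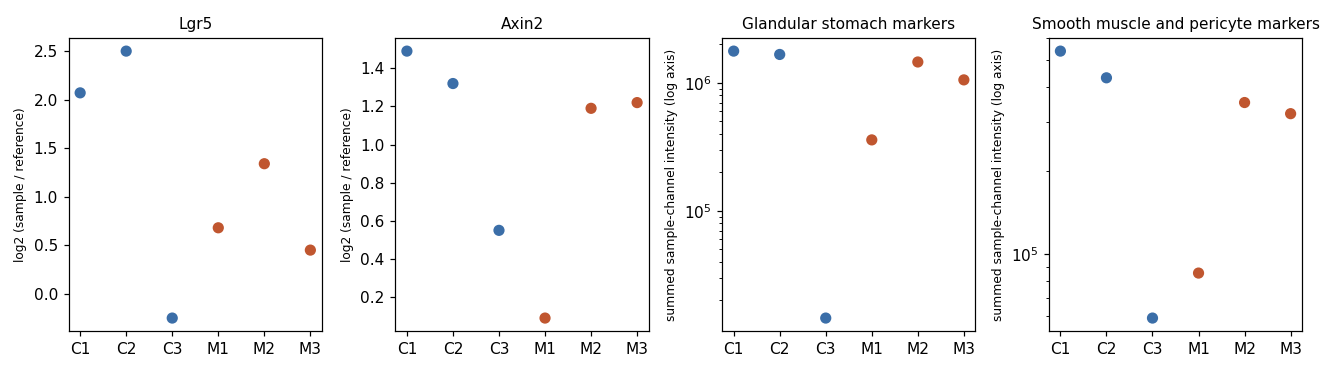
Log2 ratio of Lgr5 and Axin2 (left panels) and summed sample-channel intensity of the glandular stomach and the smooth muscle and pericyte marker lists (right panels, log axes) on control arrays C1 to C3 and mutant arrays M1 to M3. C3 and M1 were the lowest arrays for Axin2 and for both marker sums, and C3 was the lowest for Lgr5.

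The other genes of the pathway were taken from a list of 125, all on the array, of which 115 were tested. The threshold was passed by 6 of them (5.22%, against 2.82% of all genes), 3 higher and 3 lower in mutants, and the median difference was -0.04 with 55 positive and 60 negative. The 6 were spread over 4 of the 9 roles on the list. All 6 calls were lost without control 1, without control 2, without mutant 2 or without mutant 3, and none passed with slide as a random block or with the near-identical arrays averaged. Without control 3 the count was 11. In the sample channel on its own Lgr6, Mmp7 and Kremen1 passed, and Shisa3 (5.18, limma, adjusted p = 0.088), Ephb3 (-1.12, adjusted p = 0.0541) and Tle1 (-1.01, adjusted p = 0.218) did not.

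None of the 10 other Wnt ligands tested passed (median 0.10). Wnt11, a ligand of the β-catenin-independent branch, came closest: it read 0.53, 0.37 and 0.06 in controls and 0.88, 1.45 and 1.19 in mutants, a difference of 0.85 (limma, adjusted p = 0.0818) with no overlap. Wnt9a stood at 0.34 (adjusted p = 0.245). No gene of ligand secretion passed among 3, the acyltransferase gene Porcn standing at -0.91 (adjusted p = 0.209) and the carrier gene Wls at 0.11 (adjusted p = 0.792). No receptor or co-receptor passed among 15, Fzd8 standing at 0.46 (adjusted p = 0.0815) and the co-receptor gene Lrp6 at -0.61 (adjusted p = 0.148).

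In the R-spondin system 1 of 6 passed. Lgr6, a receptor related to Lgr5 that marks stem cells of hair follicles, rose from -0.39 ± 0.13 to 0.94 ± 0.19 (SD, n = 3 each), by 1.33 on the log2 scale (2.52-fold, SE 0.15, limma, adjusted p = 0.0142). The arrays read -0.54, -0.31 and -0.34 in controls and 0.74, 1.11 and 0.98 in mutants, with more distance between groups than within them. A second Lgr6 probe gave a difference of 0.03 (adjusted p = 0.904), so the rise was seen by 1 of its 2 probes.

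Among secreted and surface inhibitors 2 of 14 passed, in opposite directions. Shisa3, whose product holds Frizzled and FGF receptors back from the cell surface, had the largest rise of the listed genes at 4.44 on the log2 scale (21.8-fold, SE 0.58, limma, adjusted p = 0.0217). It read 1.07, 1.37 and 0.21 in controls and 6.48, 4.35 and 5.15 in mutants and was well above background on 2 of 3 control arrays. Kremen1, a receptor for the Dickkopf inhibitors, fell 1.95-fold from 2.65 ± 0.20 to 1.68 ± 0.03 (SD, n = 3 each, limma, adjusted p = 0.0285), while its second probe stood at -0.32 (adjusted p = 0.214). Without mutant 1 Kremen1 did not pass (adjusted p = 0.052).

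No gene of the intracellular relay passed among 17, the kinase genes Csnk1a1 and Csnk1e standing at 0.28 (adjusted p = 0.22) and -0.42 (adjusted p = 0.234). Of 14 nuclear factors 1 passed: Tle1, a Groucho-family corepressor that binds TCF and LEF factors, fell 2.43-fold from 0.27 ± 0.17 to -1.01 ± 0.34 (SD, n = 3 each, limma, adjusted p = 0.0345). Its second probe stood at -0.77 (adjusted p = 0.0727).

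Of 23 further target genes 2 passed, again in opposite directions. Mmp7, which encodes the matrix protease matrilysin, rose 3.43-fold from 0.48 ± 0.22 to 2.26 ± 0.40 (SD, n = 3 each, limma, adjusted p = 0.0224) and was well above background on 1 of 3 control arrays. Ephb3, an ephrin receptor that sorts cells in the intestinal crypt, fell 2.07-fold from 2.73 ± 0.24 to 1.68 ± 0.10 (SD, n = 3 each, limma, adjusted p = 0.0308), and did not pass without mutant 1 (adjusted p = 0.0574). Of 13 planar polarity genes none passed, although 10 were negative (median -0.19). Prickle3 stood at -0.62 (adjusted p = 0.0886) and Fuz at -0.64 (adjusted p = 0.125).

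**Figure D5:**
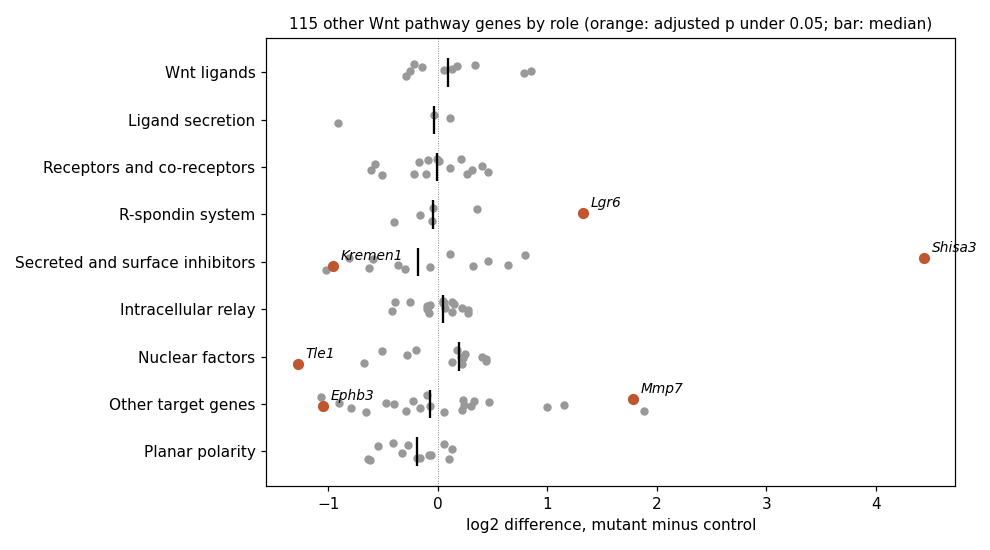
Log2 difference, mutant minus control (horizontal axis), of 115 other Wnt pathway genes by role (rows); each point is a gene, orange points passed an adjusted p of 0.05 in limma, and the bar is the role's median. The 6 named genes lay to both sides of 0, and Shisa3 at 4.44 lay farthest from it.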

How the data were processed

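Scanner files were deposited with the mean intensity of each spot and the median of its local background in both channels. Per the file headers they were written by Feature Extraction 10.5.1.1 (control 3: 10.7.3.1) for a design on mm9, while version 9.1 stands in the submitters' processing notes. A deposited table of log2 ratios of the same arrays, whose normalization and centring are not given in the sources used here, served as an alternative. Against the scanner files it ran as log2 of sample over reference (slopes 0.978 to 1.17, column medians 0.026 to 0.06). Across probes, column mutant 1 of the table correlated more with scanner file mutant 3 (r = 0.973) than with its namesake (0.886), and the reverse held for column mutant 3 (0.969 against 0.881), so single mutants are named here as in the scanner files.

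Here, limma 3.58.1 under R 4.3.3 was used for normexp correction (offset 50) and within-array loess, control spots and software-marked outliers having no weight and then being left out. Intensities in the report are mean signal minus median background; channel differences and marker sums use quantile-normalized channels. Probes were kept if at least 3 of 6 arrays had them well above background for the sample, each gene being represented by its brightest probe. Of 41174 probes, 32699 (79.4%) were named through RefSeq (GRCm38.p6), and the rest kept the files' names. Control 3's file names 4946 probes differently, among them 3 of the 16 probes of the Wnt set. Groups were compared with lmFit and eBayes over all 6 arrays (4 residual degrees of freedom) with Benjamini-Hochberg adjustment. Pooling of RNA is not addressed in the labels; p-values reflect only how these arrays vary, which may be partly technical, and precision is limited by the number of arrays.

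The members and lists were chosen with earlier results of these data known. Named genes are all members and, for each role, every pathway gene past the threshold (up to 4) or else the 2 with the smallest p, plus the 3 genes nearest to Axin2 and Shisa3. Tested on simulated data of 20481 genes for this comparison, the fit found 37% of genes given a change of 1 log2 unit and 81% of genes given 2, with 2 false calls. The simulated arrays were independent, unlike the near-identical pairs. Alternatives concerned background correction, normalization, channel, filter, probes, slide, scan day, array weights, near-identical arrays, replicate number and leaving out arrays.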

Additional observations from a re-analysis of the deposited data

How the results depend on the processing

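Over 22 alternatives, the 9 tested Wnt genes kept their direction and side of the threshold in 176 of 197 refits, passed it in 15 with the same direction, and changed sign in 6. No tested Wnt gene passed in the original fit (2 at an unadjusted p under 0.05), and 1 passed in the sample channel alone, 1 with scan day as a block, 7 with array weights and 5 without both control 3 and mutant 1. The pathway count of 6 became 2 with the software's processed signals, 3 in the sample channel alone, 0 with slide as a random block, 11 with scan day as a block, 53 with array weights, 0 with near-identical arrays averaged and 47 without both control 3 and mutant 1. The count over all genes of 581 became, in that order, 325, 305, 4, 1483, 11557, 0 (2193 at an unadjusted p under 0.05) and 7726. Array weights gave control 3 a weight of 0.0769 and mutant 3 one of 7.63, and both the weighted fit and the fit without both arrays set the near-identical pairs against each other. Leaving out one array at a time gave 0 to 1 Wnt genes, 0 to 11 pathway genes and 34 to 1483 genes, the highest without control 3. Replicate numbers did not pair the arrays (correlations of same-numbered deviations 0.00468, 0.0195 and 0.126); with the replicate block limma called 137 genes, 2 of the pathway and 0 Wnt genes.

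Signs changed for Axin2 (0.08 without mutant 1, the lowest of the single omissions being -0.57), Wnt10a (0.06 with near-identical arrays averaged, 0.01 and 0.02 without control 1 and control 2; single omissions reached -0.39, and it passed at -0.45 with array weights and at -0.49 without both arrays), Fzd10 (0.03 scaled, 0.12 over the mean of probes), Csnk1a1 (-0.07 over the mean of probes) and Wls (-0.02 over the mean of probes, -0.14 with scan day as a block or without control 3, against up to 0.27 without control 2, -0.13 with array weights, -0.10 without both arrays). Causes were not tested. Wnt4 ran from -1.19 to -0.49 (adjusted p from 0.000157 to 0.552), Wnt7b from -1.15 to -0.36, Lgr5 from -1.74 to -0.09 and Sfrp1 from 0.20 to 1.54. Aquantile leaves log ratios as they are by construction, and scan day as a block gives the same fit as leaving out control 3. Neither Aquantile nor the scan day block thus adds an independent refit to the counts. Signal over background limits Wnt7a and, on control 3, Lgr5.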
